A study of Lens culinaris with 18 samples.

Results

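A set of 172 genes out of the 58243 in the count tables was on in the libraries of one label and off in those of the other between the lentil cultivars Redmoon and Gold, in each of the dissected parts of the seed. The label that was on changed between the parts. A gene was taken as on in a group when all 3 of its libraries held at least 1 CPM (the count of a gene scaled to the total of its library) and as off when all 3 held at most 0.1 CPM. The 172 genes met this condition between Redmoon-labelled and Gold-labelled libraries in embryos and again in seed coat with endosperm. They made up 1.2% of the 14339 genes that were on in at least 1 of the cultivars in each tissue. The levels of the cultivars chose these genes, so the difference between Redmoon and Gold is given as a description, with no test. The M11 libraries took no part in the choice.

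RNA was sequenced from embryos and from seed coat with endosperm, dissected from mature green seeds of plants kept in a growth chamber. The 3 genotypes were M11, a natural line that carries the mutated lcltp3b allele of a lipid transfer protein gene, and the cultivars CDC Redmoon and CDC Gold. Each genotype had 3 libraries per tissue, 18 in all. Separate plants are not stated for the libraries of a group, so the spread between them, which the p-values measure, may be technical. M11 differs from the cultivars in its whole background and not in LcLTP3b alone, and a difference from a cultivar covers all of it. The total counts ranged from 3270275 in replicate 3 of Gold embryos to 24309401 in replicate 3 of Gold seed coat with endosperm, and the M11 seed coat libraries held between 5907695 and 6691125. At these depths an off call in a library with a small total, such as the M11 seed coat libraries, Gold embryo replicate 3 and Redmoon seed coat replicate 2, required a count of 0. The tissue labels were checked with the 16 genes of vicilin, a storage protein that accumulates in the cotyledons of legume embryos, which took 13.8% to 36.0% of the counts in embryo libraries and 0.170% to 0.783% in seed coat libraries.

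Cultivars of a crop can differ in which genes their genomes hold, and in genes that are intact in one cultivar and interrupted or silent in another. Reads of a gene copy that differs much from the reference may also not be counted. Counts of messenger RNA alone do not tell these situations apart. In an inbred line the embryo, the endosperm and the seed coat carry the same alleles, although the seed coat is maternal tissue and the embryo and endosperm arise from fertilisation. The tables do not pair identifiers with names or functions, so the genes are given by their identifiers, in which the number before the letter g is the chromosome and the number after it follows the order along the chromosome. None of the 17 genes the study names, the 16 vicilin genes and LcLTP3b, is among the 172.

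The 172 genes fell into 2 patterns, and the label that was on was never the same in both tissues. In 80 genes the Redmoon-labelled embryos and the Gold-labelled seed coats were on, and the Gold-labelled embryos and Redmoon-labelled seed coats were off. The other 92 genes were on in the Gold-labelled embryos and the Redmoon-labelled seed coats. A total of 0 genes was on in the same label in both tissues. With the labels of Redmoon and Gold exchanged in 1 tissue, all 172 would read as on in 1 cultivar throughout the seed. Which tissue carries which cultivar cannot be told from these counts. Redmoon and Gold below are the names on the library labels.

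**Figure D1:**
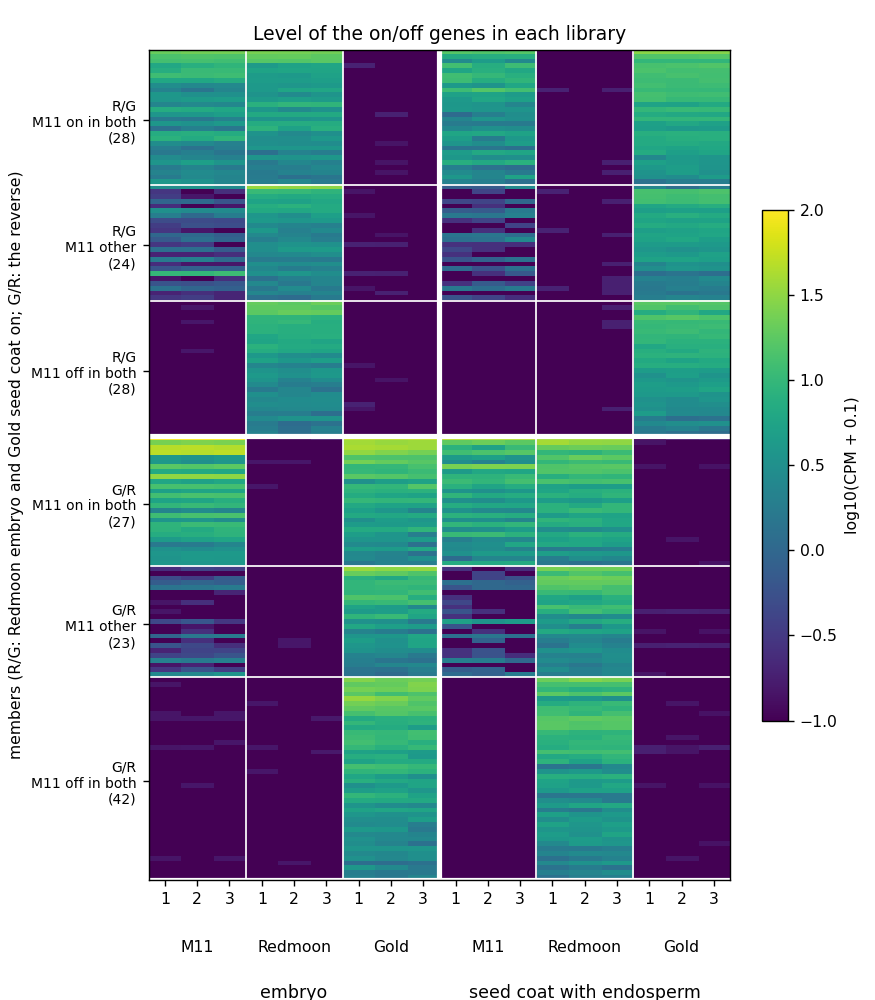
Level of the 172 on/off genes (rows) in each of the 18 libraries (columns, replicates 1 to 3 of each group), as log10(CPM + 0.1) in colour. Rows are grouped by pattern (80 R/G and 92 G/R genes) and by the state of the gene in M11, and the dark and light blocks of Redmoon and Gold change places between embryo and seed coat.

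The higher level also changed label between the tissues for most on/off genes outside the 172 that had enough counts to compare. Whether the library labels had been exchanged was not tested. In embryos alone, 279 genes met the on/off rule (1.8% of the 15520 genes on in a cultivar in embryos), 132 of them on in Redmoon-labelled and 147 in Gold-labelled embryos. In the seed coats, 172 of these 279 met the rule with the other label on, 0 met it with the same label on, and 107 did not meet it in either direction. Of the 107 genes, 91 had at least 10 counts in the cultivar seed coats, and 89 of them had the higher mean in the other label, with no overlap of the libraries for 84. The share of all genes whose cultivar libraries do not overlap was not counted, so the 84 cannot be judged against it. The 2 genes with the higher mean under the same label were Lcu.2RBY.3g009420 and Lcu.2RBY.5g042860, which are named here because they stood apart once their values had been seen. Lcu.2RBY.3g009420 was on in Gold-labelled embryos and had 13.1 to 14.5 CPM in the Gold-labelled and 4.89 to 6.60 CPM in the Redmoon-labelled seed coats. For Lcu.2RBY.5g042860 the seed coat libraries of the cultivars overlapped, at 2.51 to 3.17 CPM in Gold and 1.97 to 2.64 CPM in Redmoon.

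In the reverse direction, 394 genes were on/off in seed coat with endosperm (2.18% of 18053), 214 of them on in Redmoon-labelled and 180 in Gold-labelled libraries. Embryos showed the other label on for 172 of these, the same label on for 0, and neither for 222. Of the 135 genes among the 222 with at least 10 counts in the cultivar embryos, 130 were higher in the other label, 121 of them with no overlap. The share of all genes with no overlap was not counted here either. The 5 genes that were higher under the same label, again named after their values had been seen, were Lcu.2RBY.4g001420, Lcu.2RBY.5g003320, Lcu.2RBY.6g039890, Lcu.2RBY.2g077270 and Lcu.2RBY.7g072460. The libraries did not overlap for 2 of them. Lcu.2RBY.5g003320 held 1.03 to 1.31 CPM in Redmoon-labelled and at most 0.336 CPM in Gold-labelled embryos, and Lcu.2RBY.2g077270 held 1.31 to 2.75 CPM in Gold-labelled and 0.508 to 1.000 CPM in Redmoon-labelled embryos.

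**Figure D2:**
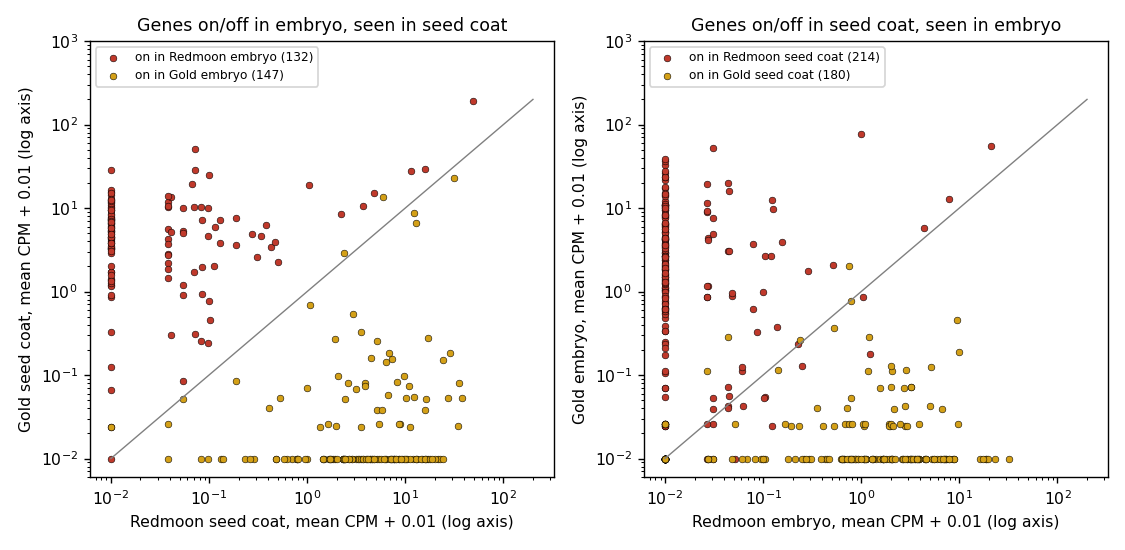
Genes that were on/off in 1 tissue, plotted by their mean CPM + 0.01 in the Redmoon-labelled (x) and Gold-labelled (y) libraries of the other tissue, on log axes, with the line of equal levels. Left, the 279 embryo genes seen in seed coat with endosperm; right, the 394 seed coat genes seen in embryo; red genes, on in Redmoon, mostly lie on the Gold side of the line, and yellow genes, on in Gold, mostly on the Redmoon side.

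The rule itself allows at most 0, 1 or 2 counts of a gene in an off library, depending on its total, and most genes had none. In embryos 145 of the 172 genes had 0 counts in all 3 off libraries, in seed coat with endosperm 139 did, and 124 had 0 counts in all 6. Summed over a pattern, the off libraries held between 0% and 0.219% of the mean sum in the on libraries of the same tissue. The highest value, 0.219%, belonged to replicate 3 of the Redmoon-labelled seed coats, where 66 of the 80 genes were at 0 and the rest had 14 counts in all. Replicate 3 of Gold embryos and replicate 2 of Redmoon seed coats were at 0 for all 80 genes, which the rule required at their small totals.

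The sums over each pattern were close between replicates. The 80 genes on in Redmoon-labelled embryos summed to 435, 423 and 429 CPM in these libraries, and to 0.625, 0.566 and 0 CPM in the Gold-labelled embryos. In the Gold-labelled seed coats they summed to 550, 546 and 551 CPM, and in the Redmoon-labelled seed coats to 0.370, 0 and 1.20 CPM. The rule itself keeps the on and off sums apart, since it sets a limit for every gene in every one of these libraries. The 92 genes on in Gold-labelled embryos summed to 867, 800 and 793 CPM there and to at most 0.254 CPM in Redmoon-labelled embryos. In seed coat with endosperm they summed to 724, 737 and 752 CPM in the Redmoon-labelled and to at most 0.576 CPM in the Gold-labelled libraries. M11 lay between the cultivars in every sum, with 179 ± 3.49 CPM in embryos and 156 ± 4.41 CPM in seed coat with endosperm for the 80 genes (SD, n = 3). For the 92 genes its sums were 403 ± 9.38 CPM and 240 ± 4.86 CPM (SD, n = 3).

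Most members were expressed at a low level where they were on. The mean CPM of the on group ranged from 1.14 to 52.3 in embryos (median 4.39) and from 1.18 to 38.1 in seed coat with endosperm (median 5.77). For the genes with 0 counts in an off group, the on group was set against a floor of 3 counts over that group, which covers counting error only. The on level was at least 19.7-fold to at least 731-fold higher in embryos (145 genes, median bound 76.4) and at least 11.8-fold to at least 543-fold higher in seed coat with endosperm (139 genes, median bound 83.2). On levels in embryo and in seed coat with endosperm went together across the genes, with Pearson's r = 0.61 and Spearman's rho = 0.62 on log2 CPM (n = 172 genes). Both points of a gene share its length, which CPM does not remove, and genes are not independent replicates, so no p is given. Lcu.2RBY.1g060540 had the most unequal levels, with 18.6 times as many CPM in Redmoon-labelled embryos as in Gold-labelled seed coats.

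**Figure D3:**
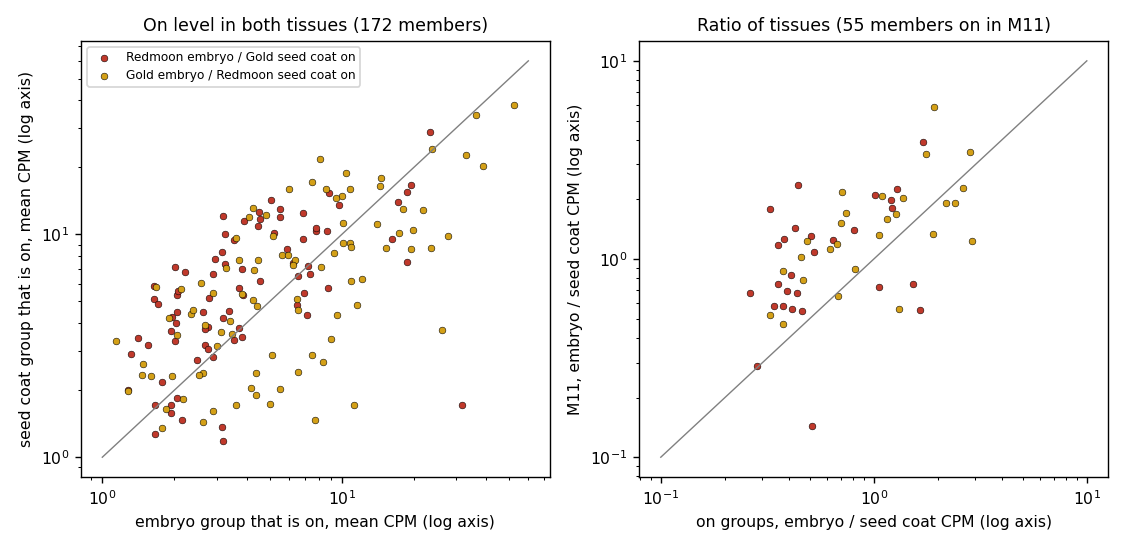
Left, mean CPM of the 172 genes in the embryo group (x) and in the seed coat group (y) in which each is on, on log axes; levels in the 2 tissues go together (r = 0.61). Right, the embryo to seed coat ratio of CPM in the on groups (x) and in M11 (y) for the 55 genes on in M11 in both tissues, on log axes (r = 0.57); the lines mark equal values.

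The genes nearest to the thresholds show how sharp the rule was. Just inside the on threshold were Lcu.2RBY.L005120, with 1.00 CPM in its lowest on library, and Lcu.2RBY.1g022520, with 1.03 CPM. Just outside it were Lcu.2RBY.1g003830, with 0.99987 CPM, and Lcu.2RBY.4g059080, with 0.986 CPM, both of the pattern with Redmoon embryo and Gold seed coat on. On the off side, Lcu.2RBY.2g023820 and Lcu.2RBY.3g001310 were inside with 0.0961 CPM in their highest off library, and Lcu.2RBY.7g028340 (0.102 CPM) and Lcu.2RBY.4g071340 (0.103 CPM) were outside. Lcu.2RBY.4g071340 was otherwise clearly switched, with 12.2 CPM in its lowest on library. The genes closest to having the same label on in both tissues were Lcu.2RBY.5g003320, which is described above, and Lcu.2RBY.6g019730 and Lcu.2RBY.7g073860. Their highest off libraries held 0.336, 0.559 and 0.687 CPM, all above the off limit.

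In M11, 55 of the 172 genes (32.0%) were on in both tissues, 70 (40.7%) were off in both, and 47 (27.3%) were neither. Of the 14339 genes on in a cultivar in both tissues, 92.0% were on in M11 in both and 1.38% were off in both. Each pattern held both states, with 28 on, 28 off and 24 others among the 80 genes and 27 on, 42 off and 23 others among the 92. No member was on in M11 in 1 tissue and off in the other, a state that 18 of the 14339 genes (0.126%) had. Of the 70 genes off in both M11 tissues, 60 had 0 counts in all 6 M11 libraries. Of the 47 remaining genes, 22 were between the thresholds in both tissues, and the others were on or off in 1 tissue only.

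**Figure D4:**
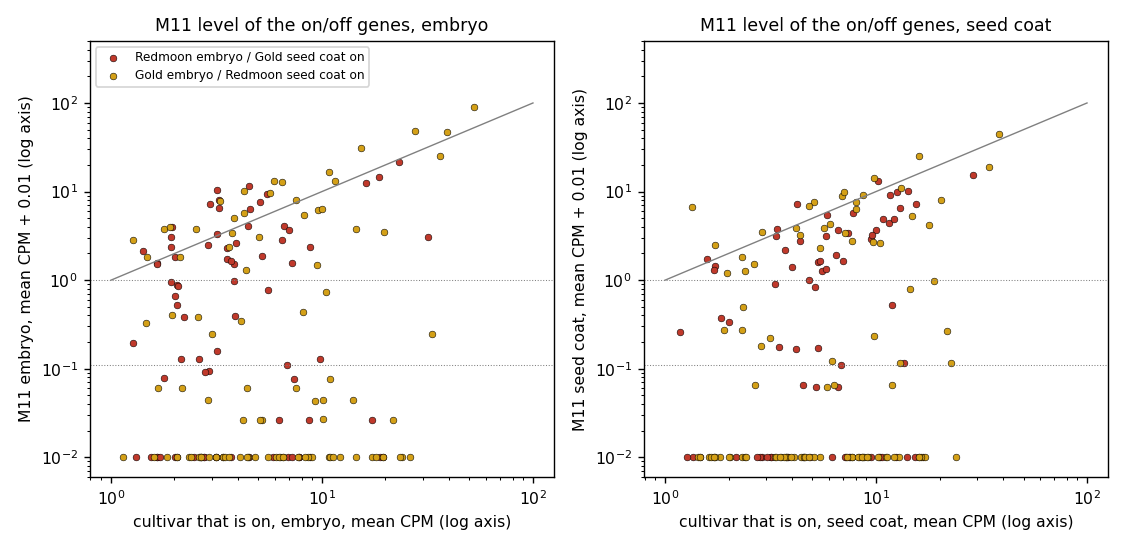
Mean CPM + 0.01 of the 172 genes in M11 (y) against the mean CPM of the cultivar group in which each is on (x), in embryos (left) and in seed coat with endosperm (right), on log axes. The solid line marks equal levels and the dotted lines mark 1 and 0.1 CPM; genes with 0 counts in M11 lie along the bottom, and the 55 genes on in both M11 tissues lie on either side of the line, between 17.9% and 256% of the on level in embryos and between 22.9% and 497% in seed coat with endosperm.

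Lcu.2RBY.2g054340 had the highest mean on level in CPM of the genes on in M11, Redmoon-labelled embryos and Gold-labelled seed coats. Its embryo levels were 20.1, 22.5 and 22.7 CPM in M11, 23.9, 23.5 and 22.4 CPM in Redmoon, and 0 in all 3 Gold libraries. In seed coat with endosperm it had 15.9, 14.8 and 15.8 CPM in M11, 29.1, 29.5 and 27.5 CPM in Gold, and 0 in all 3 Redmoon libraries. On library totals, M11 overlapped the on libraries in embryos and lay below them in seed coat. After TMM, edgeR's scaling, which sets the bulk of the genes level between libraries, it was lower than the on cultivar in embryos too (log2 fold change -0.74, edgeR adjusted p = 1.22e-08). Lcu.2RBY.4g051990 had 14.5 ± 0.36 CPM in M11 and 18.6 ± 1.04 CPM in Redmoon embryos (SD, n = 3), and 7.27 ± 0.286 CPM in M11 and 15.5 ± 0.651 CPM in Gold seed coats. Lcu.2RBY.6g008160 had 12.5 ± 0.521 and 16.2 ± 0.736 CPM in the same embryo groups, and 3.22 ± 1.03 and 9.55 ± 0.135 CPM in the same seed coat groups. Both genes had 0 counts in all Gold embryo and Redmoon seed coat libraries, and their M11 libraries lay below all on libraries in both tissues.

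Among the genes on in M11, Gold-labelled embryos and Redmoon-labelled seed coats, Lcu.2RBY.1g073290 had the most CPM. In embryos it had 88.0, 89.9 and 92.8 CPM in M11 and 53.1, 50.3 and 53.5 CPM in Gold, and its single Redmoon count was in replicate 3. In seed coat with endosperm it had 47.1, 42.9 and 43.0 CPM in M11, 38.4, 38.8 and 37.1 CPM in Redmoon, and 0, 1 and 2 counts in the Gold libraries. M11 lay above the on cultivar in both tissues on this scale. Lcu.2RBY.7g050370 went the other way in seed coat, with 47.2 ± 1.70 CPM in M11 and 39.0 ± 2.21 CPM in Gold embryos, but 8.09 ± 2.73 CPM in M11 and 20.2 ± 0.775 CPM in Redmoon seed coats (SD, n = 3). It had 0 counts in every off library. After TMM scaling, both Lcu.2RBY.1g073290 and Lcu.2RBY.7g050370 were lower in M11 than in Gold embryos (log2 fold changes -0.46 and -1.01, edgeR adjusted p = 5.65e-07 and 5.07e-12). Lcu.2RBY.6g009270 was lower in M11 in both tissues, with 25.0 ± 0.784 against 36.2 ± 2.20 CPM in Gold embryos and 19.0 ± 1.74 against 34.2 ± 4.11 CPM in Redmoon seed coats.

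Genes that were off in M11 had few or no counts there. Lcu.2RBY.5g009290 had 19.5, 17.5 and 21.3 CPM in Redmoon embryos and 17.1, 16.9 and 15.8 CPM in Gold seed coats. It had 0 counts in the other 12 libraries, M11 included, so that Redmoon embryos were at least 381-fold and Gold seed coats at least 105-fold higher than M11 (3 counts over the M11 group). Lcu.2RBY.1g001270 was also at 0 in all 12, beside 17.2, 19.9 and 19.2 CPM in Redmoon embryos and 7.12, 9.12 and 6.25 CPM in Gold seed coats. Lcu.2RBY.7g064370, with 17.2 ± 1.10 CPM in Redmoon embryos and 14.0 ± 1.48 CPM in Gold seed coats (SD, n = 3), had 1 count in 1 M11 embryo library and 0 in the other 5 M11 libraries.

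The genes of the other pattern that were off in M11 looked alike. Lcu.2RBY.5g071090 had 27.7, 21.2 and 22.6 CPM in Gold embryos and 20.8, 27.5 and 23.9 CPM in Redmoon seed coats, and 0 counts in the other 12 libraries. The corresponding bounds against M11 were at least 477-fold in embryos and at least 150-fold in seed coat with endosperm. Lcu.2RBY.6g009550 was likewise at 0 in 12 libraries, with 23.5 ± 1.98 CPM in Gold embryos and 8.65 ± 0.986 CPM in Redmoon seed coats (SD, n = 3). Lcu.2RBY.3g000650 had 21.8 ± 4.76 and 12.9 ± 0.0796 CPM in these groups and 1 count in a single M11 embryo library. The on level of these genes also held in Gold embryo replicate 3, the library with the smallest total, at 22.6, 25.4 and 27.2 CPM for Lcu.2RBY.5g071090, Lcu.2RBY.6g009550 and Lcu.2RBY.3g000650.

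The remaining genes had M11 levels far below the on cultivar or crossing a threshold. Lcu.2RBY.1g060540 was at 34.0, 31.7 and 29.7 CPM in Redmoon embryos and at 2.93, 3.47 and 2.71 CPM in M11 embryos. Its seed coat levels were 2.23, 1.13 and 1.77 CPM in Gold and 0.677, 0.629 and 2.54 CPM in M11, and these libraries overlapped. Lcu.2RBY.5g037990 and Lcu.2RBY.7g019890, also on in Redmoon embryos and Gold seed coats, held at most 0.314 CPM in any M11 library. Lcu.2RBY.4g048330 had 33.1 ± 2.06 CPM in Gold embryos, 22.6 ± 1.19 CPM in Redmoon seed coats, 0.237 ± 0.0789 CPM in M11 embryos and 0.106 ± 0.0925 CPM in M11 seed coats (SD, n = 3). Lcu.2RBY.1g064790 was at 0 in M11 embryos and had 2 counts in a single M11 seed coat library, beside 17.9 ± 2.69 CPM in Gold embryos and 13.0 ± 1.98 CPM in Redmoon seed coats. Lcu.2RBY.1g040790 had 0.425 ± 0.189 CPM in M11 embryos and 8.13 ± 1.87 CPM in Gold embryos, and 0.254 ± 0.230 CPM in M11 and 21.7 ± 1.24 CPM in Redmoon seed coats.

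M11 embryo and M11 seed coat with endosperm were compared within M11, which the rule did not use. The quasi-likelihood test of edgeR was used, p-values were adjusted by Benjamini-Hochberg across the 22081 genes that passed its filter, and a gene was called at an adjusted p under 0.05. All 172 genes passed the filter on low counts, which they passed through the groups where they are on. In M11, 44 of the 172 were higher in embryo and 7 were lower, 51 in all, where 39.9% of all genes tested were higher and 39.6% lower, together 79.4%. The 70 genes off in both M11 tissues, 60 of them with 0 counts in every M11 library, passed the filter only through the cultivars and had next to no M11 counts to compare, so nothing is read from these shares. Of the 55 genes on in M11 in both tissues, 32 were higher in embryo, 6 were lower and 17 were not called, with a median log2 fold change of 0.72 beside 0 over all genes tested. The 47 genes neither on nor off in both had 12 higher and 1 lower. Both sets were drawn by their M11 levels in these same libraries, which bounds the tissue changes they can show. All genes tested carry no such condition, so these counts and medians are description only. The count of 6 lower genes was 3 without M11 embryo replicate 1 and 2 without M11 seed coat replicate 3. With library totals alone in place of TMM, 23 of the 55 were higher and 16 lower, and the median of all genes moved to -0.35 and that of the 55 genes to 0.31.

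Lcu.2RBY.2g023820 was the most embryo-biased of the called genes in M11. Its M11 levels were 9.89, 9.60 and 11.3 CPM in embryos and 0, 0.157 and 0.598 CPM in seed coat with endosperm, a log2 fold change of 5.64 (SE 0.34, edgeR adjusted p = 3.73e-22). The cultivar groups in which it was on had 3.20 ± 0.383 CPM in Redmoon embryos and 1.18 ± 0.121 CPM in Gold seed coats (SD, n = 3). Lcu.2RBY.6g011560 followed, with 0.497, 0.352 and 0.157 CPM in M11 embryos and 0 counts in M11 seed coats, called at an edgeR adjusted p = 0.00171 on 20 counts in all. The largest changes towards seed coat were those of Lcu.2RBY.L000860 and Lcu.2RBY.2g004070. Lcu.2RBY.L000860 had 0.348, 0.553 and 0.209 CPM in M11 embryos and 5.08, 3.46 and 4.33 CPM in M11 seed coats (log2 fold change -3.08, SE 0.36, edgeR adjusted p = 4.5e-11), and its on groups were at 2.58 ± 0.915 CPM in Gold embryos and 6.02 ± 1.54 CPM in Redmoon seed coats. Lcu.2RBY.2g004070 had 2.04, 1.36 and 2.24 CPM in M11 embryos and 11.2, 15.7 and 12.3 CPM in M11 seed coats (log2 fold change -2.38, SE 0.19, edgeR adjusted p = 5.26e-17), beside 5.21 ± 0.989 CPM in Redmoon embryos and 10.2 ± 0.331 CPM in Gold seed coats. In each of these genes the M11 libraries of the 2 tissues did not overlap.

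The ratio of embryo to seed coat levels went together in M11 and in the on groups, which carry different cultivar labels in the 2 tissues. None of these correlations was computed over all genes, so they are not read as particular to this set. Over the 55 genes on in M11, the log2 ratio of embryo to seed coat CPM in M11 and the same ratio between the groups labelled on had r = 0.57 and rho = 0.59. It was r = 0.40 for the 28 genes on in Redmoon embryos and Gold seed coats and r = 0.66 for the 27 genes of the other pattern. The level in M11 and in the on group of the same tissue had r = 0.74 in embryos and r = 0.63 in seed coat with endosperm (n = 55 genes). In the case of levels, the 2 values of a gene share its length. M11 was within 2-fold of the on group for 37 of the 55 genes in embryos, for 34 in seed coat with endosperm and for 23 in both, in CPM on library totals. The share of all genes within 2-fold was not counted. On this scale the median log2 fold change of all genes in embryos was itself 0.64 against Redmoon and 1.26 against Gold.

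M11 was then set against the cultivar in which each gene is on, in 1 edgeR fit per tissue of its 9 libraries. The rule set the level of the cultivar and the M11 state that of M11, so the counts describe these genes and support nothing about them. In embryos 153 of the 172 genes were lower in M11, 4 were higher and 15 were not called, where 32.1% of all 18623 genes tested were lower than in Redmoon and 37.1% lower than in Gold, 31.5% and 36.9% were higher, and 63.6% and 74% were called in either direction. In seed coat with endosperm 150 were lower, 5 were higher and 17 were not called, beside 36.9% lower than in Gold and 34.2% lower than in Redmoon, 35.9% and 37.2% higher, and 72.8% and 71.5% called in either direction, among 19386 genes. All 70 genes off in M11 were among the lower ones in each tissue. Of the 55 genes on in M11, 38 were lower and 3 higher in embryos (median log2 fold change -0.76), and 35 were lower and 5 higher in seed coat with endosperm (median -0.70). Both sets of counts depended on the processing. In embryos with library totals alone, the median of all genes moved to 0.64 against Redmoon and 1.26 against Gold, the median of the 55 genes was 0.20, and 26 were higher and 19 lower. In seed coat with endosperm, 10 were higher with library totals alone, and 3 with DESeq2, with its size factors in edgeR or with no filter on low counts.

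Of the 55 genes on in M11, 3 were higher in M11 embryos and are named after their values had been seen. All 3 were on in Redmoon embryos and Gold seed coats. Lcu.2RBY.4g071370 had 11.7, 11.1 and 11.7 CPM in M11 and 4.32, 4.03 and 5.12 CPM in Redmoon embryos (log2 fold change 0.72, SE 0.13, edgeR adjusted p = 3.39e-05). Its neighbour Lcu.2RBY.4g071420 had 7.23 ± 0.329 and 2.95 ± 0.438 CPM in these groups (SD, n = 3), and Lcu.2RBY.2g031490 had 7.99 ± 1.16 and 3.24 ± 0.55 CPM. In seed coat with endosperm all 3 genes were lower in M11 than in Gold, with log2 fold changes of -0.45, -0.52 and -1.20 in the same order (edgeR adjusted p = 0.00263, 0.00505 and 1.1e-06). Whether the difference from the on cultivar itself differed between the tissues was not tested.

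Of the 5 genes higher in M11 seed coats, also named after their values had been seen, Lcu.2RBY.3g016990 had the largest difference. It had 6.94, 6.44 and 6.73 CPM in M11 and 1.48, 1.19 and 1.37 CPM in Redmoon seed coats, a log2 fold change of 2.12 (SE 0.28, edgeR adjusted p = 7.84e-10). Its embryo levels were 3.74 ± 0.0711 CPM in M11 and 1.78 ± 0.262 CPM in Gold (SD, n = 3), which were not called apart after TMM scaling (edgeR adjusted p = 0.466). The others were Lcu.2RBY.2g068470, Lcu.2RBY.3g001540, Lcu.2RBY.7g037680 and Lcu.2RBY.2g004070, with log2 fold changes of 0.50, 0.69, 0.34 and 0.28 and edgeR adjusted p = 8.47e-05, 0.000826, 0.0395 and 0.0481. Without M11 seed coat replicate 2, 3 genes were higher.

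The 172 genes lay on all 7 chromosomes. There were 25, 24, 25, 17, 21, 28 and 25 on chromosomes 1 to 7, and 7 on unplaced sequence. Of the genes on in a cultivar in both tissues, this was between 0.774% (chromosome 4) and 1.59% (chromosome 6) on the chromosomes and 2.19% on unplaced sequence. By pattern, chromosome 4 held 15 genes on in Redmoon embryos and 2 on in Gold embryos, chromosome 2 held 17 and 7, chromosome 6 held 8 and 20, and chromosome 1 held 7 and 18. Of 158 pairs of consecutive placed genes, 94 had the same pattern. The longest run had 12 genes, all on in Redmoon embryos and Gold seed coats, from Lcu.2RBY.2g004070 to Lcu.2RBY.2g057790. Neither value was set against the share that the unequal patterns of the chromosomes would give, so no clustering by pattern is read from them. The M11 states by chromosome ranged from 3 on and 10 off of 21 genes on chromosome 5 to 11 on and 10 off of 25 genes on chromosome 3.

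**Figure D5:**
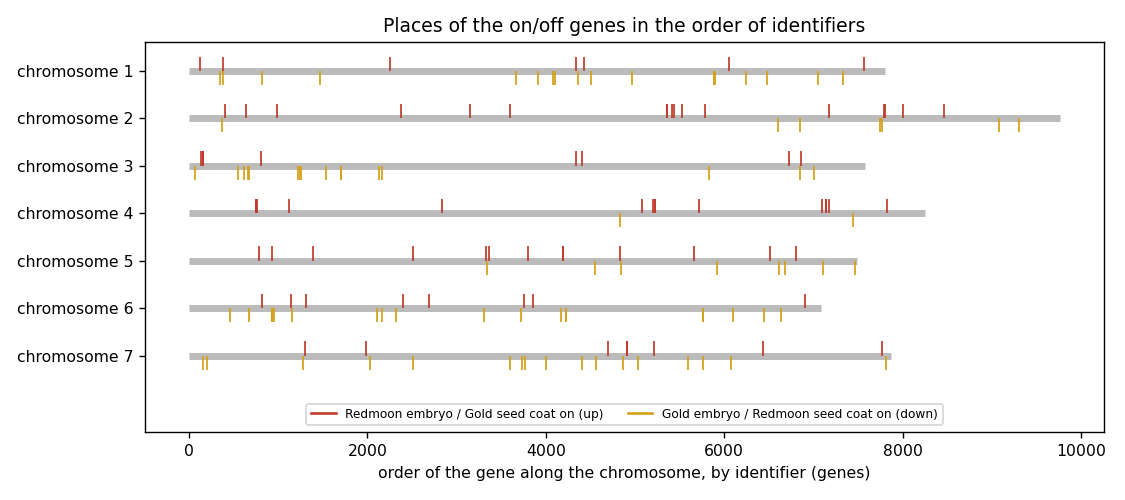
Places of the 165 placed genes in the order of identifiers along each chromosome (x, in genes), with the genes on in Redmoon embryos and Gold seed coats as red ticks above the line and those on in Gold embryos and Redmoon seed coats as yellow ticks below. Chromosome 4 carries 15 red and 2 yellow ticks, and chromosome 6 carries 8 and 20.

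The distance between members was read from the order of identifiers. Of the 165 placed genes, 39 (23.6%) had another member within 10 identifiers on either side, whereas 4.97% of the 13854 other genes on in a cultivar in both tissues had a member that close. Adjacent identifiers gave 14.5% against 0.512%, and 50 identifiers on either side gave 47.3% against 21.7%. No test was made of this difference, since neighbouring genes are not independent and can be copies of one another that share reads. Pairing each member only with the next one along gave 21 pairs within 10 identifiers. They had the same pattern in 18 cases, beside 94 of all 158 pairs of consecutive members. The M11 state was the same in 8 of the 21, and that share was not counted over all consecutive pairs. In 5 of the 21, a gene on in both M11 tissues was joined to a gene off in both. The 39 genes formed 15 groups of 2 and 3 groups of 3.

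A group on chromosome 1 joined both M11 states. Lcu.2RBY.1g058850 had 11.7, 13.4 and 13.7 CPM in M11 embryos and 6.58, 6.19 and 6.73 CPM in Gold embryos, and 7.67 ± 0.636 and 5.10 ± 0.652 CPM in M11 and Redmoon seed coats (SD, n = 3). Its direct neighbour Lcu.2RBY.1g058860 had 0 counts in all 6 M11 libraries, beside 3.80, 2.57 and 1.53 CPM in Gold embryos and 1.30, 1.72 and 1.29 CPM in Redmoon seed coats. The third gene, Lcu.2RBY.1g058950, was again on in M11, with 5.73 ± 0.555 CPM in embryos and 10.9 ± 1.64 CPM in seed coats, beside 4.27 ± 1.09 CPM in Gold embryos and 13.2 ± 0.528 CPM in Redmoon seed coats. All 3 genes had 0 counts in the off libraries of both tissues. The direction in embryos turned with the scaling: after TMM, the log2 fold change of M11 against Gold was -0.25 for Lcu.2RBY.1g058850 (edgeR adjusted p = 0.0691, not called) and -0.72 for Lcu.2RBY.1g058950 (edgeR adjusted p = 0.000805).

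A group on chromosome 3 was on in M11 throughout. Lcu.2RBY.3g001540 had 3.58, 4.82 and 3.44 CPM in M11 and 1.52, 2.38 and 1.94 CPM in Redmoon embryos, and 7.22 ± 0.84 CPM in M11 and 4.24 ± 0.701 CPM in Gold seed coats (SD, n = 3). Lcu.2RBY.3g001550 had 2.48 ± 0.456 and 2.89 ± 0.0994 CPM in these embryos and 3.67 ± 0.908 and 6.64 ± 0.26 CPM in these seed coats. After TMM, Lcu.2RBY.3g001540 was not called in embryos (log2 fold change 0.38, edgeR adjusted p = 0.116), and Lcu.2RBY.3g001550 was lower in M11 (log2 fold change -0.86, edgeR adjusted p = 0.000508). Lcu.2RBY.3g001610 was lower in M11 in both tissues, with 1.71 ± 0.246 against 3.53 ± 0.0854 CPM in embryos and 2.93 ± 0.709 against 9.45 ± 0.0146 CPM in seed coats (edgeR adjusted p = 1.15e-07 and 6e-12). The remaining group, on chromosome 6, held Lcu.2RBY.6g009260, Lcu.2RBY.6g009270 and Lcu.2RBY.6g009340, which were lower in M11 than in the on cultivar in both tissues. Lcu.2RBY.6g009340 was the lowest in M11, with 1.47 ± 0.174 against 9.43 ± 0.327 CPM in Gold embryos and 0.783 ± 0.239 against 14.5 ± 1.97 CPM in Redmoon seed coats.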

How the data were processed

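The authors deposited 6 tables of raw read counts per gene, whole numbers for 58243 genes, with 1 column per library. The submitters' processing notes name STAR 2.7.10. The genome build, the counting tool and its handling of reads that match several genes were not given in the sources used here, so genes with near-identical copies are uncertain. Polyadenylated RNA had been made into TruSeq libraries and sequenced as paired-end reads. Every column was used, and groups came from the sample labels.

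CPM was computed on library totals with Python 3.11.15 and pandas 2.3.3. Tests across genes were run on the counts in R 4.3.3 with edgeR 4.0.16 (filterByExpr, TMM, glmQLFit and glmQLFTest, Benjamini-Hochberg adjustment over all genes tested). The M11 tissues were compared in 1 fit of 18 libraries in 6 groups, and M11 was compared with the cultivars in a fit of 9 libraries per tissue. Log2 fold changes are embryo minus seed coat within M11, and otherwise M11 minus the cultivar. The code of the fits was also run on simulated counts, drawn from the means of an M11 group with 1 spread for all genes. These counts held no shift of the bulk of the genes between groups, so they do not show how the fits handle one. DESeq2 1.42.0, other scalings, filters and thresholds, the replicate number as a block, and each replicate left out in turn were alternatives. Replicates differed by more than sampling noise (chi-square per degree of freedom 1.55 to 11.9), so none was merged. Floors use 3 counts over a group.

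The members and the lists were chosen with earlier results of these data known. The genes named are, for each pattern and M11 state, the 3 with the highest mean on level, the 2 with the largest called change in each direction between the M11 tissues, the largest neighbouring groups, and the genes next to the thresholds. Any named beyond these is said to have been chosen after its values were seen, or belongs to a group of neighbours. Excepted are Lcu.2RBY.6g019730 and Lcu.2RBY.7g073860, among the 3 genes closest to having the same label on in both tissues. No sequences were analysed here.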

Additional observations from a re-analysis of the deposited data

Results flagged for a closer look

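The difference between the libraries labelled Redmoon and Gold in embryos had the opposite direction to that in seed coat with endosperm for all 172 genes, which drew attention because every sample of 1 label moved one way in embryos and the other way in seed coat with endosperm. The rule that chose the genes allowed either direction in each tissue, and 0 genes had the same label on in both. The opposite directions were not tested, since the rule used these values.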

How the results depend on the processing

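The number of on/off genes was 116 with an on threshold of 2 CPM, 254 with 0.5 CPM, 223 with an off threshold of 0.2 CPM, 124 with 0 counts required, 194 with TMM-scaled CPM, and 174 to 185 without 1 replicate. The count with the same label on in both tissues, and that of members on in M11 in 1 tissue and off in the other, was 0 under all of these. Members on in both M11 tissues numbered 33 at 2 CPM, 82 at 0.5 CPM and 73 with an off threshold of 0.2 CPM. They numbered 42 with 0 counts required, 54 with TMM-scaled CPM, and 55 to 58 without 1 replicate. Those off in both numbered 49 at 2 CPM, 100 at 0.5 CPM, 104 with an off threshold of 0.2 CPM, and 49 with 0 counts required. With TMM-scaled CPM 85 were off in both, and without 1 replicate 70 to 75. The correlation of on levels was 0.58 with TMM-scaled CPM and 0.61 to 0.62 without 1 replicate. Members with a neighbouring member numbered 24 within 1 identifier (14.5%, beside 0.512% of the other genes) and 78 within 50 (47.3% beside 21.7%). Counting only genes on in a cultivar in both tissues, 71 had one within 10 (43.0% beside 17.8%).

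Among the 55 genes on in M11, an absolute log2 fold change of at least 1 left 20 higher and 2 lower in M11 embryo against seed coat, 0 higher and 23 lower against the on cultivar in embryos, and 1 higher and 22 lower in seed coat with endosperm. Library totals alone gave 23 higher and 16 lower between the tissues, 26 higher and 19 lower in embryos, and 10 higher in seed coat. The count of 5 higher in M11 seed coats was 3 with DESeq2's size factors, 3 with DESeq2 and 3 without a filter on low counts. Without 1 replicate, the M11 tissues gave 28 to 32 higher and 2 to 7 lower (3 without M11 embryo replicate 1 and 2 without M11 seed coat replicate 3), embryos 3 to 4 higher and 36 to 38 lower, and seed coat 3 to 5 higher (3 without M11 seed coat replicate 2) and 31 to 35 lower. The log2 fold change of M11 against Gold embryos turned positive with library totals alone for Lcu.2RBY.1g073290 (0.80), Lcu.2RBY.7g050370 (0.25), Lcu.2RBY.1g058850 (1.01) and Lcu.2RBY.1g058950 (0.53), and that of Lcu.2RBY.3g001550 between the M11 tissues was -0.31 to 0.067 without 1 replicate, and positive without M11 seed coat replicate 3. The cause was not tested.

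With the replicate number as a block, 32 genes were higher and 5 lower between the M11 tissues, 3 higher and 38 lower in embryos, and 4 higher and 34 lower in seed coat. Between the M11 tissues, and between M11 and each cultivar within a tissue, libraries with the same number deviated together with correlations of -0.038 to 0.028. No pairing by number was seen there, and the tissues of each cultivar were not compared in this way. Depth limits the off state most in Gold embryo replicate 3, where 1 count is 0.306 CPM, and in M11 seed coats, where 1 count is 0.149 to 0.169 CPM.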
